A study of Mus musculus with 4 samples.

Results

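Agonist selection and regulatory T cell genes were examined in CD69+CD4+CD8+ (CD69+DP) thymocytes, which are cells that have received a T cell receptor (TCR) signal and carry the activation marker CD69. The genes were the 10 rows of the deposited table whose symbols are *Foxp3*, *Il2ra*, *Ctla4*, *Tnfrsf4*, *Tnfrsf9*, *Tnfrsf18*, *Tnfrsf1b*, *Pdcd1*, *Cd83* and *Gfi1*, of 24421 genes listed. The cells were sorted from 6-week-old C57BL/6 mice in 4 samples. The 2 control samples came from Foxa1fl/flFoxa2fl/fl CD4Cre- mice and the 2 Foxa1/2cKO samples from Foxa1fl/flFoxa2fl/fl CD4Cre+ mice, so that both groups carry the floxed *Foxa1* and *Foxa2* alleles. The Cre transgene is driven by the *Cd4* promoter and is active from the DP stage onwards. Each sample was sorted separately from different mice.

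A thymocyte whose TCR recognises self-peptide strongly is usually deleted, but some such cells survive and enter specialised lineages, a process called agonist selection. Regulatory T cells (Tregs) are the best known of these lineages. Their precursors induce the IL-2 receptor α chain (CD25, encoded by *Il2ra*) and several receptors of the TNF receptor superfamily, and then switch on *Foxp3*, the transcription factor that defines the lineage.

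Levels are given in FPKM, the fragments counted per kilobase of a gene relative to a total for each sample. Genes of unequal length can thereby be compared. Whole reads were recovered from the steps of the FPKM, and 10396878 to 14482765 reads per sample fell on listed genes. In Foxa1/2cKO 2 the total that divides the FPKM (11093927) was below the recovered reads (11262416), unlike in the other samples. Relative to recovered reads, the FPKM of Foxa1/2cKO 2 are thus higher than those of the other samples. With scaling to all recovered reads, the median log2 fold change of the 10 genes was -0.33. *Foxa1* and *Foxa2* were listed at 0 in all 4 samples, so the deletion cannot be checked from them. The 2 Foxa1/2cKO samples differed from each other more than the controls did: the median absolute difference in log2(FPKM + 1) over the 10776 genes tested was 0.200 between the Foxa1/2cKO samples and 0.0762 between the controls. Because the RNA is from bulk cells, fewer cells of a type and less RNA per cell cannot be told apart in any value below.

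To show the regulatory sequence of the genes described below, promoters were taken from RefSeq (GRCm38.p6, the same assembly as mm10) for 9 of the 10 genes, with 12 annotated start sites in all. The 250 bases before each start were searched on both strands. The forkhead core TGTTTAC or TGTTTGC, the kind of site bound by Foxa and Foxp3 proteins, was in 0 of the 12 windows, against 7.3% of all 32841 promoter windows of this length. GGGANTTTC, a narrow form of the NF-kB site, was in 0 of 12 windows (0.941% of all windows). Other forms of the forkhead and NF-kB sites, and sequence outside these windows, were not searched. The counts of 0 therefore do not show that such sites are absent. The AP-1 site TGANTCA was in 1 of 12 (6.75% of all windows), before the second start of *Tnfrsf9*. The core of NFAT sites, TGGAAA, was in 4 of 12 windows (18.6% of all windows), those of *Foxp3*, *Ctla4*, *Tnfrsf4* and *Tnfrsf9*. NFAT is a factor activated by TCR-driven calcium signals. The windows of 3 of these genes are given 5′ to 3′ with the match to TGGAAA or its complement TTTCCA in capitals. They lie at chrX:7580233-7580482 (+ strand, *Foxp3*, before the second annotated start), chr1:60908775-60909024 (+ strand, *Ctla4*) and chr4:150919905-150920154 (+ strand, *Tnfrsf9*, before the first annotated start).

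*Foxp3*: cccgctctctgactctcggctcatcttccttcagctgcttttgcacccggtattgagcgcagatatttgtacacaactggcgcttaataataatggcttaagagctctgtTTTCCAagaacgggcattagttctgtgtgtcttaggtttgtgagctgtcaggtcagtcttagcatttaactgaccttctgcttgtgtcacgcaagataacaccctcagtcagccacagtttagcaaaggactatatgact

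*Ctla4*: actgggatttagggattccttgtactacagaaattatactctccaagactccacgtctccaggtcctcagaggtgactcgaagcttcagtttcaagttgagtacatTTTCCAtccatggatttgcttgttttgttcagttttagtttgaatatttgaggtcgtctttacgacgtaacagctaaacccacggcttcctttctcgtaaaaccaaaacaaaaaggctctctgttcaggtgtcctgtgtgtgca

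*Tnfrsf9*: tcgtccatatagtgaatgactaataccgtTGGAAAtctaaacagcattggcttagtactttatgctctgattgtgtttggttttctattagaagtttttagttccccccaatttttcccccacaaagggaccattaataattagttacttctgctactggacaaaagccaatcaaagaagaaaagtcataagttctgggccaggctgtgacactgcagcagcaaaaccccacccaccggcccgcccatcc

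The match began 140 bases before the start of transcription in *Foxp3*, 144 in *Ctla4* and 221 in *Tnfrsf9*. A match of letters is a description of these windows and does not show binding.

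All 10 genes were detected, and all 10 passed the filter, which asked for 1 FPKM or more in 2 or more samples. The order of mean FPKM in the controls was *Tnfrsf18* (43.3), *Gfi1* (42.2), *Tnfrsf4* (34.8), *Pdcd1* (23.0), *Tnfrsf9* (22.4), *Tnfrsf1b* (18.7), *Il2ra* (6.95), *Cd83* (5.14), *Ctla4* (3.88) and *Foxp3* (2.79). The control values of *Tnfrsf18* and *Gfi1* overlapped, as did those of *Pdcd1* and *Tnfrsf9*, so these neighbours cannot be ordered. The control values of *Il2ra* and *Cd83*, of *Cd83* and *Ctla4*, and of *Ctla4* and *Foxp3* did not overlap. *Foxp3* stood at the 9.81 percentile of all genes tested by mean FPKM over the 4 samples and *Gfi1* at the 83.4 percentile.

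The comparison of Foxa1/2cKO with control asks which transcripts change when both factors are deleted from developing T cells. None of the 10 genes reached an adjusted p under 0.05 (limma on log2(FPKM + 1) with Benjamini-Hochberg adjustment over 10776 genes, adjusted p of 0.863 to 0.992), and 1 gene in the whole table did, 0.00928% of those tested. At an unadjusted p under 0.05 stood 1 of the 10, *Foxp3*, against 4.55% of all genes tested. The fitted difference was negative for 7 genes and positive for 3, with a median of -0.30 on the log2 scale against 0.01 over all genes tested. With 2 samples per group an exact permutation test cannot give a two-sided p under 0.333.

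**Figure D1:**
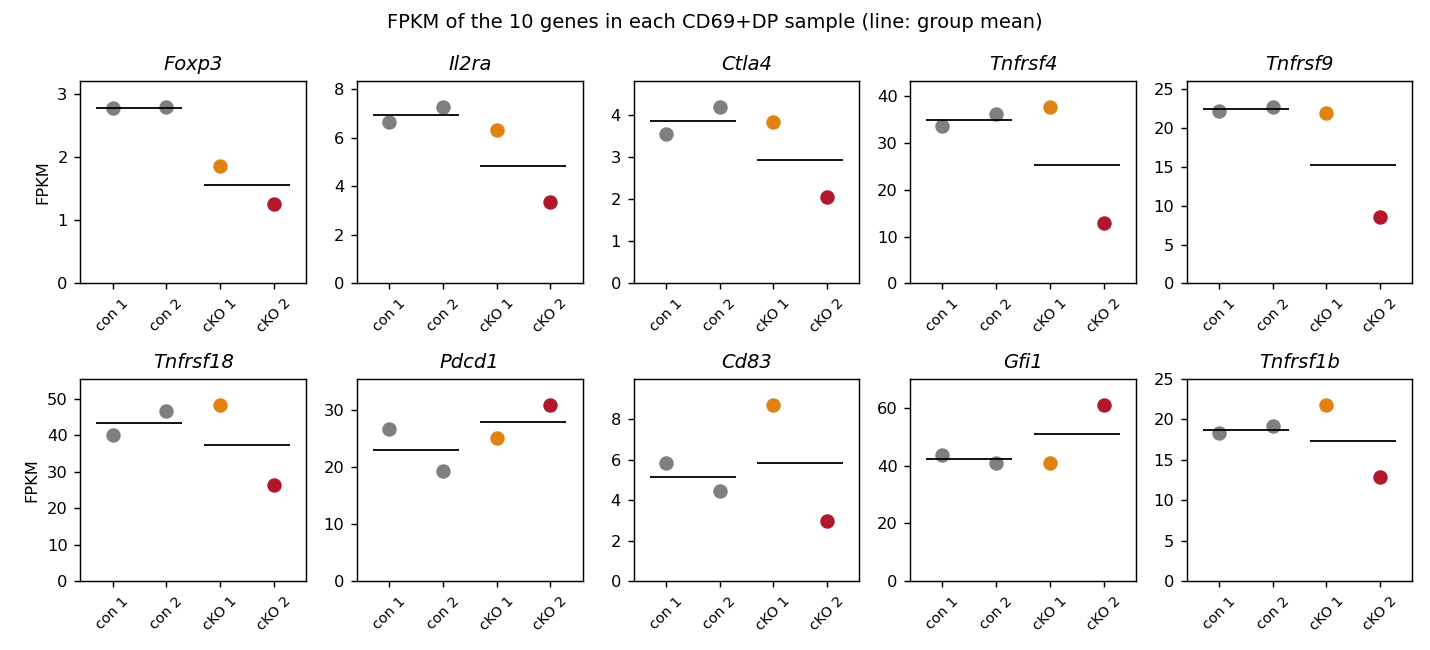
FPKM of each of the 10 genes (vertical axes, each from 0) in the 4 CD69+DP samples (con, control; cKO, Foxa1/2cKO), with each point 1 sample and each line the group mean. *Foxp3* is the gene for which both Foxa1/2cKO samples are well below the controls, and Foxa1/2cKO 2 is the lowest point for 8 genes and the highest for *Pdcd1* and *Gfi1*.

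*Foxp3* (chromosome X, 7579676 to 7595243, + strand) was at 2.79 FPKM in control 1 and 2.79 in control 2, and at 1.86 and 1.26 in Foxa1/2cKO 1 and 2. Both Foxa1/2cKO samples were below both controls, and the controls were nearly equal. The mean was 2.79 ± 0.00326 (SD, n = 2) in control and 1.56 ± 0.425 in Foxa1/2cKO, a ratio of 0.560. The log2 fold change was -0.58 ± 0.18 (SE), with an unadjusted p of 0.0273 and an adjusted p of 0.863 in limma. These values rest on 164, 149, 79 and 55 reads.

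The reads give the precision of each sample on its own, counting error only. In Foxa1/2cKO 1 the *Foxp3* level was 0.667 of that of both controls together, with a 95% interval of 0.515 to 0.857 (exact binomial interval of the reads), and in Foxa1/2cKO 2 it was 0.452 with an interval of 0.333 to 0.604. Of the 10 genes, *Foxp3* was the 1 whose level in Foxa1/2cKO 1 lay below the controls beyond counting error, a position held by 17.6% of all genes tested. The gene overlaps *Ccdc22* in the annotation, and *Ccdc22* was at 22.3 FPKM in Foxa1/2cKO 1 and at 21.9 in Foxa1/2cKO 2, against 23.5 and 22.4 in the controls. How reads shared by overlapping genes were split by strand is not given in the sources used here.

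*Il2ra* (chromosome 2, 11642792 to 11693194, + strand), which makes the receptor for IL-2 high in affinity, was at 6.65 and 7.25 FPKM in the controls, with 6.34 for Foxa1/2cKO 1 and 3.34 for Foxa1/2cKO 2. The groups did not overlap, but Foxa1/2cKO 1 was close to control 1. The log2 fold change was -0.49 ± 0.27 (SE), with an unadjusted p of 0.132 in limma. The level in Foxa1/2cKO 1 was 0.913 of the controls, with an interval of 0.799 to 1.04, which takes in no difference.

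*Ctla4* (chromosome 1, 60909025 to 60915832, + strand) encodes an inhibitory receptor that Tregs express constitutively. It was at 3.56 and 4.19 FPKM in the controls, with 3.83 for Foxa1/2cKO 1 and 2.05 for Foxa1/2cKO 2, so that Foxa1/2cKO 1 lay between the controls. The log2 fold change was -0.34 ± 0.26 (SE), with an unadjusted p of 0.245 in limma, and its values rest on 44 to 110 reads per sample.

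Of all genes tested, 17.8% had both Foxa1/2cKO samples below both controls and 18.9% had both above. Of the 10 genes, 3 were below (*Foxp3*, *Il2ra* and *Tnfrsf9*) and 0 were above.

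The 4 TNF receptor genes among the 10 encode costimulatory receptors of activated T cells and Tregs, and all 4 lie on chromosome 4. *Tnfrsf4*, which encodes OX40, was at 33.5 and 36.1 FPKM in the controls, with 37.5 for Foxa1/2cKO 1 and 12.9 for Foxa1/2cKO 2. Foxa1/2cKO 1 was the highest of the 4 samples and Foxa1/2cKO 2 the lowest. The log2 fold change of -0.63 ± 0.49 (SE), with an unadjusted p of 0.257 in limma, therefore averages samples on opposite sides of the controls.

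*Tnfrsf18*, which encodes GITR, was at 40.1 and 46.6 FPKM in the controls, with 48.3 for Foxa1/2cKO 1 and 26.4 for Foxa1/2cKO 2. Its order of samples was that of *Tnfrsf4*. The log2 fold change was -0.27 ± 0.30 (SE), with an unadjusted p of 0.411 in limma. The 2 genes are neighbours, with *Tnfrsf4* at 156013595 to 156016613 and *Tnfrsf18* at 156026322 to 156028894, both on the + strand and 9708 bases apart.

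The other genes tested within 50000 bases of this pair were *Sdf4* and *B3galt6*. *Sdf4*, which overlaps the 5′ end of *Tnfrsf4*, was at 44.1 FPKM for Foxa1/2cKO 1 and 40.8 for Foxa1/2cKO 2. *B3galt6* was at 3.86 and 2.41, a ratio of 0.625. The ratio of Foxa1/2cKO 2 to Foxa1/2cKO 1 was 0.343 for *Tnfrsf4*, 0.547 for *Tnfrsf18* and 0.926 for *Sdf4*.

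*Tnfrsf9* (150920155 to 150946104, + strand), a receptor induced by TCR signals, was at 22.2 and 22.7 FPKM in the controls, with 21.98 for Foxa1/2cKO 1 and 8.56 for Foxa1/2cKO 2. The groups did not overlap, but Foxa1/2cKO 1 was 0.981 of the controls, with an interval of 0.886 to 1.08. The log2 fold change was -0.66 ± 0.42 (SE), the most negative of the 10, with an unadjusted p of 0.182 in limma.

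*Tnfrsf1b* (145212368 to 145246870, - strand), which encodes the second TNF receptor, was at 18.3 and 19.2 FPKM in the controls, with 21.8 for Foxa1/2cKO 1 and 12.9 for Foxa1/2cKO 2. The Foxa1/2cKO samples lay on either side of the controls, and the log2 fold change was -0.15 ± 0.25 (SE), with an unadjusted p of 0.578 in limma.

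The inhibitory receptor PD-1 and the repressor Gfi1 had the other pattern. *Pdcd1* (chromosome 1, 94038305 to 94052553, - strand) was at 26.7 and 19.3 FPKM in the controls, with 25.003 for Foxa1/2cKO 1 and 30.8 for Foxa1/2cKO 2. Foxa1/2cKO 2 was the highest sample, and the controls differed from each other by more than they differed from Foxa1/2cKO 1. It had a log2 fold change of 0.28 ± 0.19 (SE) and an unadjusted p of 0.209 in limma.

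*Gfi1* (chromosome 5, 107716655 to 107725805, - strand) encodes a zinc finger repressor induced by TCR signals in DP cells. It was at 43.6 and 40.9 FPKM in the controls, with 40.9 for Foxa1/2cKO 1 and 60.98 for Foxa1/2cKO 2. The first 3 samples were alike and Foxa1/2cKO 2 was above them. In limma the log2 fold change was 0.24 ± 0.20 (SE), with an unadjusted p of 0.297.

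*Cd83* (chromosome 13, 43785112 to 43803133, + strand) encodes a surface protein of activated lymphocytes, dendritic cells and thymic epithelium. It was at 5.84 and 4.44 FPKM in the controls, with 8.70 for Foxa1/2cKO 1 and 2.99 for Foxa1/2cKO 2, the extremes being the 2 Foxa1/2cKO samples. It had a log2 fold change of 0.03 ± 0.45 (SE) and an unadjusted p of 0.951 in limma. The level in Foxa1/2cKO 1 was 1.68 times that of the controls, with an interval of 1.40 to 2.01, and in Foxa1/2cKO 2 it was 0.578, with an interval of 0.440 to 0.75.

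Of the 3 B cell markers used, *Cd79a* was at 23.6, 11.4, 27.2 and 15.8 FPKM in control 1, control 2, Foxa1/2cKO 1 and Foxa1/2cKO 2, *Ms4a1* at 10.9, 6.02, 18.6 and 6.00, and *Cd22* at 2.21, 1.57, 3.33 and 1.63. *Cd79a* and *Cd22* were lowest in control 2, and *Ms4a1* was nearly equal in control 2 and Foxa1/2cKO 2. *Cd83* was lowest in Foxa1/2cKO 2. The summed FPKM of the 3 was 36.8 and 19.0 in the controls, with 49.1 for Foxa1/2cKO 1 and 23.5 for Foxa1/2cKO 2. Both *Cd83* and this sum were highest in Foxa1/2cKO 1 and next highest in control 1. The part of B cell RNA in the *Cd83* values was not tested.

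The spread of these genes was mostly within the Foxa1/2cKO group. Foxa1/2cKO 2 was the lowest of the 4 samples for 8 of the 10 genes and the highest for 2, while of all genes tested 33.3% were lowest and 40.5% highest in that sample. At least 2-fold lower in Foxa1/2cKO 2 than in Foxa1/2cKO 1 were 3 of the 10 (*Tnfrsf4*, *Tnfrsf9* and *Cd83*), against 6.19% of all genes tested. The median difference in log2(FPKM + 1) between Foxa1/2cKO 2 and Foxa1/2cKO 1 was -0.73 over the 10 genes and 0.03 over all genes tested.

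The counting interval of the ratio of Foxa1/2cKO 2 to Foxa1/2cKO 1 left out 1 for all 10 genes, against 52.1% of all genes tested. For control 2 against control 1 it did so for 3 of the 10 (*Tnfrsf18*, *Pdcd1* and *Cd83*), against 19.3% of all genes tested. The lowest ratios between Foxa1/2cKO samples were those of *Tnfrsf4*, 0.343 with an interval of 0.286 to 0.411, and *Cd83*, 0.344 with an interval of 0.258 to 0.453. For *Tnfrsf4* the controls gave 1.08, with an interval of 0.957 to 1.21. The ratio of *Foxp3* was 0.678, with an interval of 0.471 to 0.968, the nearest to 1 of the 8 genes that were lower in Foxa1/2cKO 2.

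**Figure D2:**
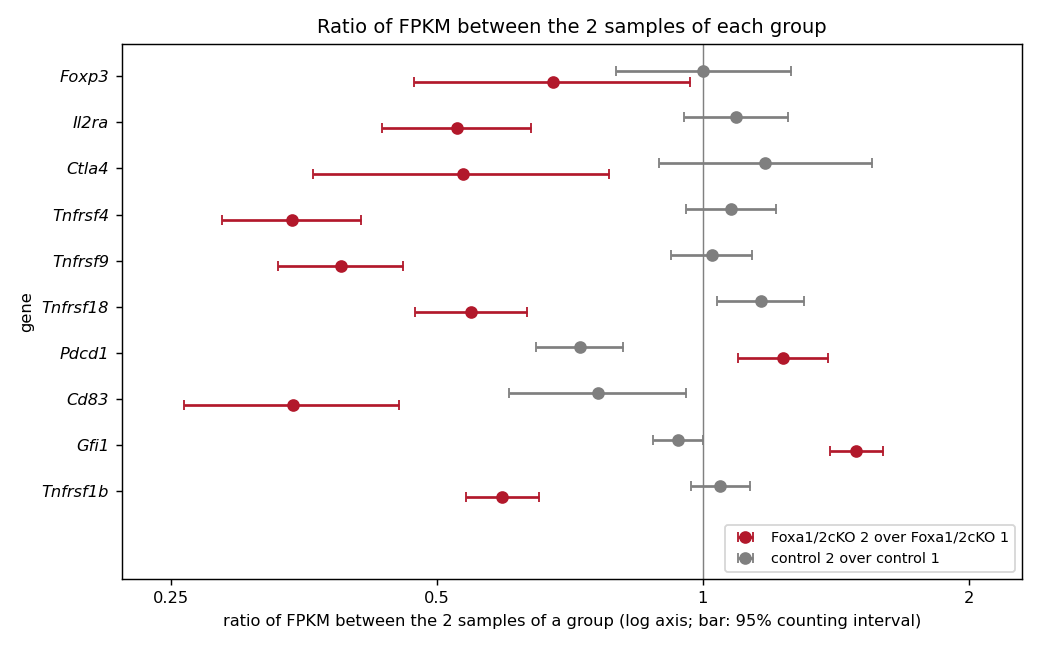
Ratio of FPKM between the 2 samples of each group (horizontal log axis) for the 10 genes, with 95% exact counting intervals as bars. The Foxa1/2cKO ratios lie below 1 for 8 genes, down to 0.343 for *Tnfrsf4*, and at 1.23 for *Pdcd1* and 1.49 for *Gfi1*, while the control ratios lie between 0.726 and 1.18.

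Against both controls together, the counting interval of Foxa1/2cKO 2 lay below 1 for 8 of the 10 genes and above 1 for 2, against 23.6% and 30.9% of all genes tested. In Foxa1/2cKO 1 it lay below 1 for *Foxp3* alone of the 10 and above 1 for 3 genes (*Tnfrsf18*, *Cd83* and *Tnfrsf1b*), the latter against 16.9% of all genes tested. *Tnfrsf18* in Foxa1/2cKO 1 was 1.12 times the controls, with an interval of 1.01 to 1.24, and *Tnfrsf1b* was 1.16 times the controls, with an interval of 1.09 to 1.25.

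Each Foxa1/2cKO sample was also set against the controls without the other, which assumes that the lone sample varies like the controls. Without Foxa1/2cKO 1, all 10 genes had an unadjusted p under 0.05 in limma, but so did 39.2% of all genes tested. The log2 fold changes were then -1.37 for *Tnfrsf4*, -1.29 for *Tnfrsf9*, -0.87 for *Il2ra*, -0.75 for *Foxp3*, -0.69 for *Tnfrsf18*, -0.67 for *Ctla4*, -0.61 for *Cd83* and -0.50 for *Tnfrsf1b*, and 0.42 for *Pdcd1* and 0.52 for *Gfi1*. Without Foxa1/2cKO 2, 3 of the 10 had an unadjusted p under 0.05, against 17.5% of all genes tested. These were *Foxp3* at -0.41, *Cd83* at 0.67 and *Tnfrsf1b* at 0.21, and the median over the 10 genes was 0.05.

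The direction differed between these settings for 5 genes, *Tnfrsf4*, *Tnfrsf18*, *Cd83*, *Gfi1* and *Tnfrsf1b*. *Foxp3*, *Il2ra*, *Ctla4*, *Tnfrsf9* and *Pdcd1* kept their sign, with values of -0.12 for *Il2ra*, -0.01 for *Ctla4*, -0.03 for *Tnfrsf9* and 0.13 for *Pdcd1* without Foxa1/2cKO 2. Without Foxa1/2cKO 2, *Foxp3* had the most negative value of the 10. Without control 1 or control 2, its log2 fold change was -0.58 or -0.57, with an unadjusted p of 0.127 or 0.128 in limma.

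**Figure D3:**
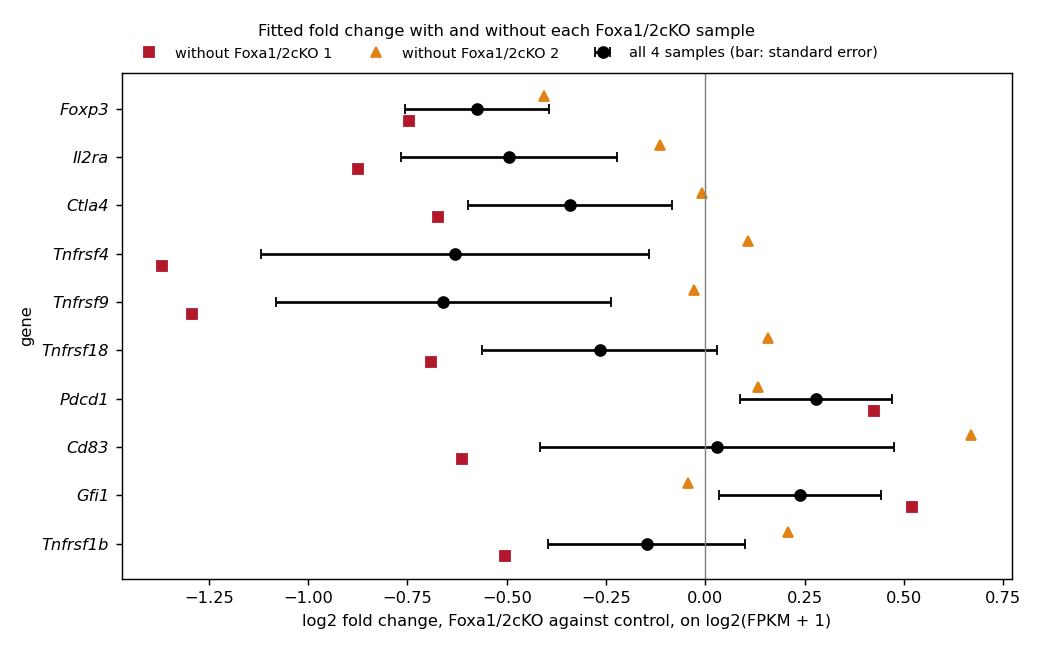
Log2 fold change on log2(FPKM + 1) (horizontal axis) of each gene in all 4 samples (circles, bars are standard errors), without Foxa1/2cKO 1 (squares) and without Foxa1/2cKO 2 (triangles). Without Foxa1/2cKO 2, 4 genes lie within 0.11 of 0 and *Foxp3* stays at -0.41.

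The other genes of these pathways were counted from lists of known members. Of 18 other genes of Tregs, 15 were tested, 1 had an unadjusted p under 0.05 in limma (4.55% of all genes did) and the median log2 fold change was -0.09. The 1 gene was *Ikzf2*, which encodes the Treg transcription factor Helios, at 26.6 and 24.2 FPKM in the controls against 30.6 and 38.2 in Foxa1/2cKO, which fitted to a log2 fold change of 0.41 ± 0.14 (SE) with an unadjusted p of 0.0315 in limma. It was higher in both Foxa1/2cKO samples, where *Foxp3* was lower in both.

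Of the 15, 9 were lowest in Foxa1/2cKO 2 and 8 were at least 2-fold lower there than in Foxa1/2cKO 1, beside the 33.3% and 6.19% of all genes tested. *Gpr83* and *Ikzf4*, chosen after their values were seen, are examples. *Gpr83* was at 11.7, 18.0, 16.1 and 4.68 FPKM in control 1, control 2, Foxa1/2cKO 1 and Foxa1/2cKO 2. *Ikzf4*, which encodes the transcription factor Eos, was at 4.98, 6.11, 5.61 and 1.91. *Cd27* had the highest level of the list and went the other way, at 293 and 267 FPKM in the controls, with 193 for Foxa1/2cKO 1 and 376 for Foxa1/2cKO 2. *Izumo1r*, the next in level, was at 38.8, 52.6, 58.2 and 25.9 in the same order of samples.

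The 17 regulators of *Foxp3* expression were all tested, and their median log2 fold change was 0.07. Of the 17, 0 had an unadjusted p under 0.05 in limma, against 4.55% of all genes tested. The 3 highest were *Satb1* (548 and 567 FPKM in the controls, 524 and 660 in Foxa1/2cKO), *Ets1* (500 and 489, then 491 and 605) and *Nr4a1* (206 and 183, then 183 and 217). In these 3, Foxa1/2cKO 2 was the highest sample, but over the 17 regulators 7 were highest and 5 lowest in it, against 40.5% and 33.3% of all genes tested.

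The 15 other genes of agonist selection were likewise all tested, with a median log2 fold change of 0.08. An unadjusted p under 0.05 in limma was reached by 0 of them, against 4.55% of all genes tested. *Cd5*, a graded marker of TCR signal strength, was at 484 and 423 FPKM in the controls, with 402 for Foxa1/2cKO 1 and 732 for Foxa1/2cKO 2. *Cd28*, the costimulatory receptor needed for thymic Treg formation, was at 170, 157, 164 and 247. *Cd69*, named outside the level rule because the cells were sorted by it, was at 113, 103, 107 and 121. Of the 15, 8 were highest and 5 lowest in Foxa1/2cKO 2, against 40.5% and 33.3% of all genes tested. *Nr4a1*, also in this list, is given above.

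Of the 9 genes of the IL-2 receptor pathway, 8 were tested. Of these, 1 had an unadjusted p under 0.05 in limma, against 4.55% of all genes tested. It was *Jak1*, the kinase bound by the receptor, at 144 and 136 FPKM in the controls against 167 and 189 in Foxa1/2cKO (log2 fold change 0.34 ± 0.10, unadjusted p of 0.0218 in limma). *Il2rg* was at 412 and 405 in the controls against 373 and 444 in Foxa1/2cKO, and *Stat5b* at 124 and 113, then 117 and 167. *Il2rb*, the β chain that pairs with the product of *Il2ra*, was at 21.2, 19.6, 24.9 and 11, and *Cish*, a target of STAT5, was at 6.43, 7.26, 6.60 and 1.33. These last 2 genes, chosen after their values were seen, shared with *Il2ra* the low value in Foxa1/2cKO 2.

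Of the 15 ligands and adaptors of the TNF receptors, 13 were tested. An unadjusted p under 0.05 in limma was held by 1, against 4.55% of all genes tested. *Lta*, a TNF family cytokine, was at 13.2 and 12.1 FPKM in the controls against 10.5 and 7.69 in Foxa1/2cKO (log2 fold change -0.45 ± 0.16, unadjusted p of 0.0438 in limma). *Birc2*, *Birc3* and *Traf2*, which carry the signal inside the cell, had the highest levels, and their log2 fold changes were 0.20, 0.02 and 0.10. The ligand genes *Tnfsf4* and *Tnfsf18*, for the products of *Tnfrsf4* and *Tnfrsf18*, were too low to be tested, at no more than 1.21 and 0.180 FPKM.

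All 6 ligands and phosphatases of the CTLA-4 and PD-1 pathways were tested. At an unadjusted p under 0.05 in limma stood 1 of them, against 4.55% of all genes tested. *Cd274*, which encodes the PD-1 ligand, was at 13.1 and 14.4 FPKM in the controls against 11.4 and 9.22 in Foxa1/2cKO (log2 fold change -0.39 ± 0.13, unadjusted p of 0.0372 in limma). *Ptpn6* was at 181 and 162, then 165 and 214, and *Ptpn11* at 27.3 and 27.4, then 27.2 and 28.6. Of the 6 corepressors and relatives of Gfi1, 5 were tested and 0 had an unadjusted p under 0.05 (4.55% of all genes did). Their log2 fold changes ran from -0.10 to 0.14, with *Hdac1* at -0.10, *Hdac2* at 0.05 and *Kdm1a*, the demethylase that Gfi1 recruits, at 0.14.

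The TNF receptor superfamily as a whole had 28 genes listed, of which 19 were tested, with a median log2 fold change of -0.14. At an unadjusted p under 0.05 in limma stood 0 of the 19, against 4.55% of all genes tested. Of the 19, 10 were lowest and 5 highest in Foxa1/2cKO 2, against 33.3% and 40.5% of all genes tested, and 7 were at least 2-fold lower there than in Foxa1/2cKO 1, against 6.19%. The highest mean FPKM were those of *Cd27*, *Tnfrsf1a* and *Tnfrsf18*, of which the values of *Tnfrsf1a* and *Tnfrsf18* overlapped. *Tnfrsf1a*, the first TNF receptor, was at 45.5 and 42.9 FPKM in the controls, with 36.2 for Foxa1/2cKO 1 and 53.0 for Foxa1/2cKO 2, opposite in order to *Tnfrsf1b*. No adjusted p was under 0.05 in any of these lists.

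**Figure D4:**
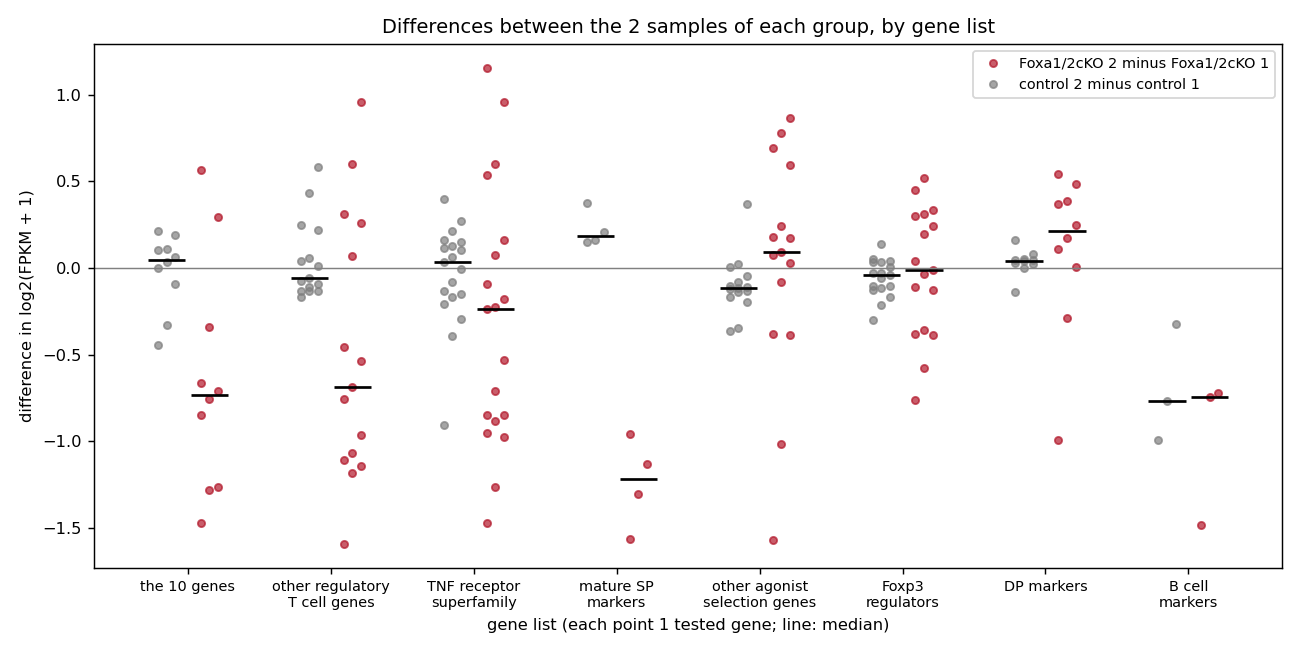
Difference in log2(FPKM + 1) (vertical axis) between the 2 Foxa1/2cKO samples and between the 2 controls for each tested gene of 8 lists, with each point 1 gene and each line a median. The Foxa1/2cKO medians are -0.73 for the 10 genes, -0.69 for other Treg genes, -0.75 for B cell markers and -1.22 for mature SP markers. They are -0.24 for the TNF receptor superfamily, -0.01 for the regulators of *Foxp3*, 0.09 for other agonist selection genes and 0.21 for DP markers.

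The samples were checked for their cell type and for other cells. The 10 DP markers were all detected, among them *Cd8b1* at 592 to 974, *Cd8a* at 475 to 666 and *Dntt* at 371 to 420 FPKM, and their summed FPKM was 2825 to 2915 in the controls, with 2920 for Foxa1/2cKO 1 and 3571 for Foxa1/2cKO 2. Of these, *Ptcra*, a gene of earlier thymocytes, had an unadjusted p of 0.0273 in limma, at 11.2 and 11.9 FPKM in the controls against 7.44 and 3.23 in Foxa1/2cKO.

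Markers of mature single-positive (SP) thymocytes were also low in Foxa1/2cKO 2. *Ccr7* was at 82.5 and 91.7 FPKM in the controls, with 86.9 for Foxa1/2cKO 1 and 39.1 for Foxa1/2cKO 2, *Klf2* at 37.0, 43.0, 43.4 and 17.0, and *Il7r* at 33.7, 44.1, 41.5 and 13.4. The 4 markers used were each at least 2-fold lower in Foxa1/2cKO 2 than in Foxa1/2cKO 1, against 6.19% of all genes tested. Between the groups, 0 of the 4 had an unadjusted p under 0.05 in limma, against 4.55% of all genes tested. The summed FPKM of the 4 was 166 to 193 in the controls, with 185 for Foxa1/2cKO 1 and 75.9 for Foxa1/2cKO 2. The part of mature cells in the values of Foxa1/2cKO 2 was not tested.

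Markers of other cell types were present at lower levels. The 8 myeloid and dendritic cell markers summed to 16.5 to 29.0 FPKM in the controls, with 31.2 for Foxa1/2cKO 1 and 16.6 for Foxa1/2cKO 2, led by *Lyz2*, *Siglech* and *Flt3*. The 4 NK cell markers summed to 22.1 to 24.9 in the controls, 28.0 and 14.8 in Foxa1/2cKO, most of it *Nkg7*, with *Klrd1* at no more than 3.01, *Klrb1c* at no more than 1.34 and *Ncr1* at no more than 0.185. The 5 thymic epithelial markers summed to 3.18 to 4.18 over all 4 samples, most of it *Epcam*, and *Foxn1* was at no more than 0.0552. Of the 3 erythroid markers, *Hba-a1* and *Hbb-bs* were listed at 0 in all samples.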

How the data were processed

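RNA of CD69+DP thymocytes was sequenced in 2 control and 2 Foxa1/2cKO samples. Alignment by the authors was to mm10, with the RefSeq annotation, and HTSeq (union mode) gave reads per gene. The submitters' processing notes also name TopHat, Picard and DESeq2. The deposited values are FPKM per gene and sample, and the tool that made them is not given in the sources used here. The paper states that each sort used 2 mice per genotype, but the labels do not say which samples shared a sort or litter. The limma p-values set the difference between groups against the spread between samples within groups, taken as independent.

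The 10 genes and all lists were chosen with earlier results of these data known. All 10 are named, and from each list those with an unadjusted p under 0.05 and the 3 highest in mean FPKM. In the mature SP and B cell marker lists, 1 gene each is not reported here and is left out of counts, sums and medians. Genes were fitted with limma 3.58.1 (R 4.3.3, mean-variance trend) on log2(FPKM + 1), which understates the change of low genes, for the 10776 of 24421 genes with at least 1 FPKM in at least 2 samples, with 2 residual degrees of freedom. The fit was also run on simulated data whose spread was set from the controls alone. It therefore cannot show how the fit performs at the wider spread of the Foxa1/2cKO samples.

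FPKM are whole multiples of the value of 1 read. Whole reads within a tolerance of 0.002 and lengths were recovered for 100% of the 16069 genes above 0, and for 4.13% of genes with at least 50 reads they were multiplied to reach a whole length. Ratios of samples use these reads with the totals of 10796528 to 14968316 that divide the FPKM, with exact 95% intervals (scipy 1.17.1). These intervals cover counting error only and leave out variation between mice. They treat reads as independent molecules, which reads are not, so they can be too narrow even for counting error. Gene positions are from RefSeq (GRCm38.p6). The alternatives were another pseudocount, 2 other filters, 2 other scalings, limma-voom on recovered reads, a length correction, a replicate block, another threshold and leaving out each sample. The main test was not a count test, since the deposited values are normalized.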

Additional observations from a re-analysis of the deposited data

How the results depend on the processing

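Over all genes, 1 was called, and 0 were with a pseudocount of 0.1, with no filter on low values, with at least 10 reads in every sample, with upper-quartile scaling, with scaling to all recovered reads and with limma-voom. Unadjusted, 477 to 802 genes had a p under 0.05 in these settings. Leaving out each sample in turn gave 0 to 2559 genes called, 0 to 10 of the 10 genes with an unadjusted p under 0.05 (1 in all samples) and 0 to 42 genes of the pathway lists (4 in all samples), the highest counts coming without Foxa1/2cKO 1 and the 0 counts without a control. Without Foxa1/2cKO 2 the counts were 19, 3 and 21. The share of all genes tested with an unadjusted p under 0.05 also rose without either Foxa1/2cKO sample, as given above, and fell without either control. Each of these fits leaves 1 sample in a group. The counts by themselves therefore do not show a change particular to the 10 genes or the pathway lists. The cause of the changes in these counts was not tested.

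The replicate numbers are shared by the groups, but the deviations of same-numbered samples did not go together (correlation -0.059), so the numbers were not taken as pairs. With the replicate block, 1 gene was called over all genes and 1 of the 10 genes, *Foxp3*, had an unadjusted p of 0.0324 in limma. The replicate block with length correction left 2 genes of the pathway lists with an unadjusted p under 0.05, and the block changed no other call among the 10 genes.

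The sign reversed for *Cd83* with limma-voom (-0.0125), without control 2 (-0.14) and without Foxa1/2cKO 1 (-0.61), and without Foxa1/2cKO 2 for *Tnfrsf4* (0.11), *Tnfrsf18* (0.16), *Gfi1* (-0.0449) and *Tnfrsf1b* (0.21). Leaving out each sample gave -0.61 to 0.67 for *Cd83*, -1.37 to 0.11 for *Tnfrsf4*, -0.69 to 0.16 for *Tnfrsf18*, -0.0449 to 0.52 for *Gfi1* and -0.50 to 0.21 for *Tnfrsf1b*. *Foxp3* was negative in every setting, from -0.86 with limma-voom to -0.41 without Foxa1/2cKO 2, and its unadjusted p was above 0.05 without either control. The low reads of *Foxp3* and *Ctla4* limit their precision.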
